A study of Rattus norvegicus with 12 samples.

Results

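The miR-144 and miR-451 locus is a pair of neighbouring microRNA genes expressed in developing red cells, and its 4 mature products, rno-miR-451-5p, rno-miR-451-3p, rno-miR-144-5p and rno-miR-144-3p (written without the rat prefix from here on), were followed in rat serum. The members were taken by name from a table of 752 mature microRNAs; all 4 were above 0 in all 12 libraries, and all 4 were among the 366 microRNAs tested. Serum came from male Sprague-Dawley rats aged 7 weeks that had received 1 oral dose by group. The dose was 180 mg/kg for rats given caffeine alone and 200 mg/kg of the hydrobromide monohydrate for rats given dextromethorphan alone. Rats given both drugs had both doses, and control rats had the vehicle, sterile distilled water. Caffeine was given 1 h ahead of dextromethorphan, and sampling of blood came 1 h after dextromethorphan. Each group was measured in 3 libraries of small RNA, named here as in the table (CAF, DEX, CAFDEX and ctrl with a number).

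miR-144 and miR-451 are made from a common primary transcript that the erythroid factor GATA1 activates in mouse red-cell precursors. miR-451 is known for an unusual route of maturation: in mouse and fish its short hairpin bypasses Dicer and is cut by the slicer activity of Argonaute 2, so that the guide strand (5p) reaches into the loop of the hairpin and no regular 3p partner strand is released. Mature red cells have no nucleus but keep their microRNAs, and miR-451 in serum or plasma is widely used as a sign of red-cell content. Knockout mice that lack miR-451, or both genes, show that the locus supports red-cell maturation and protection from oxidative stress.

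The 4 mature sequences are shown because they define what was counted; capitals mark the seed, bases 2 to 8, which selects the target messages. They are RefSeq sequences of the GRCr8 build, and all 4 names matched.
miR-451-5p: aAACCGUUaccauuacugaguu
miR-451-3p: aUGGUAAUgguucucuugcugcu
miR-144-5p: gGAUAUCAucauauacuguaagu
miR-144-3p: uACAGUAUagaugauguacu
No other rat mature microRNA of the RefSeq table had the seed of any of the 4, so they form 4 seed groups of 1 member each. Over bases 2 to 7 alone, miR-144-3p matched miR-101a-3p and miR-101b-3p, and miR-451-3p matched miR-1193-5p, which was at 0 in every library. miR-101a-3p averaged 11587 FPKM and miR-101b-3p 24781 FPKM over the 12 libraries, where FPKM scales a microRNA's reads to its length and to all reads that the library assigned to microRNAs. Both lay far above miR-144-3p, at 403 FPKM.

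The hairpins are shown because the place of the mature strands in them differs; capitals mark the mature strands, 5p first.
Mir144: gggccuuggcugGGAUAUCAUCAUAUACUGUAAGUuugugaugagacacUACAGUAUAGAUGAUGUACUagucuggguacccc
Mir451a: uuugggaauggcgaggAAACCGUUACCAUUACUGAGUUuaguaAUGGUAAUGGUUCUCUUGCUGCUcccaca
In the fold of lowest energy that RNAfold gave, the Mir451a hairpin of 72 bases had a terminal loop of 4 bases, at positions 35 to 38, and miR-451-5p occupied positions 17 to 38, so its last 4 bases lay in that loop. The Mir144 hairpin of 83 bases had a loop of 6 bases at positions 38 to 43, outside both of its mature strands, which ended at position 35 and began at position 50. In the table's coordinates (build rn6 per the submitters' processing notes) all 4 lie on the minus strand of chromosome 10: miR-144-5p at 65291413 to 65291435, miR-144-3p at 65291379 to 65291398, miR-451-5p at 65291238 to 65291259 and miR-451-3p at 65291210 to 65291232. Together they span 226 bases. Only 5 bases separate the strands of miR-451, against 14 for miR-144, and no other microRNA of the table lies within 10000 bases.

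miR-451-5p, the guide strand, was the most abundant product, yet a minor species of this serum. It averaged 4024 FPKM over the 12 libraries and ranked 148 of 752, while miR-144-5p with 1501 FPKM ranked 195, miR-144-3p with 403 FPKM ranked 261 and miR-451-3p with 363 FPKM ranked 270. The 4 together took between 0.00575% and 0.0307% of assigned reads. miR-16-5p, another abundant microRNA of red cells, was the second most abundant microRNA of the table, with 4773900 FPKM on average. Reads recovered from the steps of the deposited values numbered 38 to 139.5 per library for miR-451-5p, 22 to 61 for miR-144-5p, 2 to 18 for miR-451-3p and 2 to 13 for miR-144-3p. Statements on both 3p strands therefore rest on few reads. The recovered count was a whole number in all 12 libraries for miR-144-5p and in 11 for miR-144-3p, but in 8 for each strand of miR-451, so divided reads enter the miR-451 values.

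After dextromethorphan both strands of miR-451 and miR-144-5p rose, and miR-144-3p did not pass. miR-451-5p stood at 4871, 7378 and 8215 FPKM in dextromethorphan libraries 1, 2 and 3, against 2138, 2415 and 1324 FPKM in control libraries 1, 3 and 5. The groups did not overlap, and DEX2 and DEX3 were the highest of all 12 libraries. The group means were 6822 ± 1740.05 FPKM after dextromethorphan and 1959 ± 567 FPKM in control (SD, n = 3 each). On the log2(FPKM + 40) scale used for all fold changes here, miR-451-5p rose 3.45-fold (95% interval 2.12 to 5.64, limma adjusted p = 0.00226 over 366 microRNAs), the eleventh smallest p of the comparison.

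miR-451-3p, the strand opposite the guide, had 437, 735 and 646 FPKM in DEX1, DEX2 and DEX3, against 124, 124 and 66.6 FPKM in ctrl1, ctrl3 and ctrl5. Again the groups did not overlap. It rose 4.45-fold (2.18 to 9.12, adjusted p = 0.0136), on 9, 7.5 and 6 recovered reads after dextromethorphan and 6, 7.5 and 2 in control. The recovered reads were thus about as many in the shallower dextromethorphan libraries as in the control libraries.

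miR-144-5p, the more abundant strand of its hairpin here, had 1310.5, 4019 and 3445 FPKM in DEX1, DEX2 and DEX3, against 826, 662 and 999.6 FPKM in ctrl1, ctrl3 and ctrl5. All 3 dextromethorphan libraries lay above all 3 controls, but DEX1 lay much closer to the controls than to DEX2 and DEX3. It rose 3.11-fold (1.57 to 6.16, adjusted p = 0.0352). miR-144-3p, which targets the messenger of the oxidative stress regulator NRF2 in human cells, had 167, 1239.96 and 1609 FPKM in DEX1, DEX2 and DEX3, against 95.04, 229 and 192 FPKM in ctrl1, ctrl3 and ctrl5. DEX1 lay within the range of the controls while DEX2 and DEX3 lay above every other library, and the log2 fold change of 1.90 ± 0.72 (SE, adjusted p = 0.0818) did not pass. The 3 reads of DEX1 allow 34.5 to 489 FPKM (exact Poisson 95% interval, counting error alone) and the 11 reads of DEX2 allow 619 to 2219 FPKM, so DEX1 and DEX2 differed by more than counting error.

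In all, 3 of 4 members passed against control after dextromethorphan, all higher, where 12% of the 366 microRNAs passed in either direction, 11.5% as higher and 0.546% as lower. The groups did not overlap for these 3 members, and among all microRNAs tested 26% had every dextromethorphan library above every control. The median log2 fold change was 1.85 over the 4 members and 0.47 over all microRNAs tested. The shift of all microRNAs was seen on a scale where every library sums to the same total, and its cause was not tested. Median-of-ratios, quantile and trimmed-mean scaling align the typical microRNA between libraries by design, so a small shift under them was built in. It was 0.11, 0.03 and 0.01, and miR-451-5p and miR-451-3p passed under each of these scalings. DEX2 and DEX3 were the shallowest libraries of the series, and an earlier look at these data had set them apart. Without the pair, DEX1 alone gave a log2 fold change of 1.34 for miR-451-5p (adjusted p = 0.0931), 1.75 for miR-451-3p (0.144), 0.65 for miR-144-5p (0.533) and 0.03 for miR-144-3p (0.999), with its spread taken from the other groups.

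miR-451-5p passed whichever library was left out. The call of miR-451-3p was lost without DEX3 (log2 fold change 2.10, adjusted p = 0.0546). The call of miR-144-5p was lost without DEX2 (1.34, 0.099), without DEX3 (1.45, 0.122), without ctrl1 (1.65, 0.103) and without ctrl3 (1.49, 0.132), and also under all 3 alternative scalings. miR-144-3p passed without DEX1 (2.84, adjusted p = 0.00572).

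**Figure D1:**
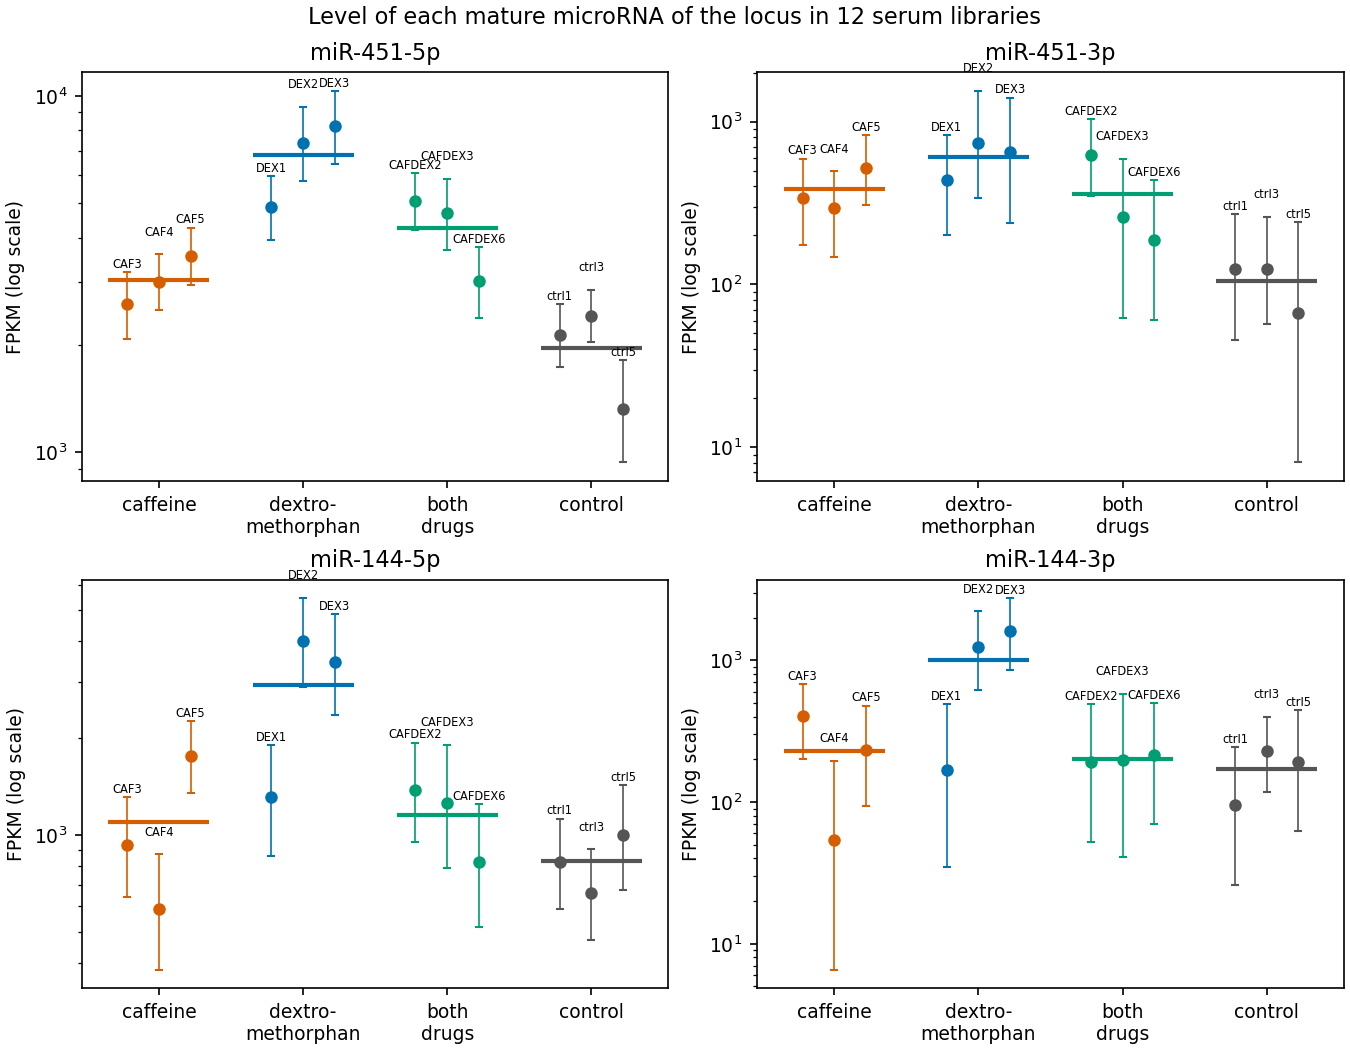
FPKM (log scale) of the 4 mature microRNAs in the 3 libraries of each group, with group means as horizontal lines and exact Poisson 95% intervals of the recovered reads as bars, which cover counting error alone. For miR-451-5p the dextromethorphan libraries at 4871 to 8215 FPKM lie above the controls at 1324 to 2415 FPKM; for miR-144-3p DEX1 at 167 FPKM lies among the controls while DEX2 and DEX3 lie above every other library.

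After both drugs the guide strand rose and the miR-144 strands did not pass. miR-451-5p had 5072, 4706 and 3015 FPKM in CAFDEX2, CAFDEX3 and CAFDEX6, against 2138, 2415 and 1324 FPKM in ctrl1, ctrl3 and ctrl5. The groups did not overlap, and CAFDEX6 was the library nearest to the controls. The rise was 2.17-fold (95% interval 1.33 to 3.54, limma adjusted p = 0.0441), and it passed narrowly. The adjusted p was 0.0508, 0.062 and 0.0596 without CAF3, CAF4 and CAF5 in turn, 0.146 without CAFDEX2, 0.159 without CAFDEX3, and 0.166, 0.0752 and 0.116 without ctrl1, ctrl3 and ctrl5 in turn. The corresponding log2 fold changes lay between 0.86 and 1.29, beside 1.12 with all libraries. The call was also lost under median-of-ratios, quantile and trimmed-mean scaling, without miR-191a-5p, with no filter on low values, with the groups fitted alone, with no mean-variance trend and after thinning, and it passed in 5 of the 13 alternatives that leave out no single library.

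miR-451-3p had 627, 258 and 187 FPKM in CAFDEX2, CAFDEX3 and CAFDEX6, all above the controls, but its log2 fold change of 1.33 ± 0.49 (SE, adjusted p = 0.0886) did not pass. It passed without CAFDEX6 (1.65, adjusted p = 0.0463). miR-144-5p had 1380.15, 1261 and 824 FPKM after both drugs and overlapped the controls through CAFDEX6, with a log2 fold change of 0.45 ± 0.46 (adjusted p = 0.538). miR-144-3p had 192, 198 and 215 FPKM, inside the range of the controls, with 0.25 ± 0.72 (adjusted p = 0.842). Of the 4 members 1 passed as higher, where 10.9% of all microRNAs passed in either direction, 6.56% as higher and 4.37% as lower. The members' median log2 fold change was 0.78, beside 0.24 over all microRNAs tested. For 2 members every library lay above every control, as it did for 18% of all microRNAs tested.

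After caffeine no member passed. miR-451-5p had 2599, 2997 and 3559 FPKM in CAF3, CAF4 and CAF5, and miR-451-3p had 339, 295 and 520.0 FPKM. Every caffeine library lay above every control for these 2 members, as it did for 26% of all microRNAs tested. Their log2 fold changes were 0.66 ± 0.33 (SE, limma adjusted p = 0.229) and 1.54 ± 0.49 (adjusted p = 0.063). The 95% interval of miR-451-5p ran from 0.969-fold to 2.58-fold, which holds the 2.17-fold rise seen after both drugs. miR-451-3p passed in a fit of the caffeine and control groups alone (adjusted p = 0.0262), with voom on recovered reads (0.0417) and without DEX1 (0.0483).

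miR-144-5p had 932, 589.8 and 1762 FPKM in CAF3, CAF4 and CAF5, which reached from below the lowest control to above the highest, and miR-144-3p had 406, 54.3 and 233 FPKM. Their log2 fold changes were 0.27 ± 0.46 (adjusted p = 0.775) and 0.15 ± 0.72 (adjusted p = 0.932), and both changed sign under quantile and trimmed-mean scaling. The 2 reads of miR-144-3p in CAF4 allow 6.57 to 196 FPKM. With limma, 0 of 4 members passed, where 7.92% of all microRNAs passed, 6.83% as higher and 1.09% as lower. An unadjusted p under 0.05 was found for 1 member (miR-451-3p) and for 91 of the 366 microRNAs tested. The median log2 fold change was 0.46 over the members and 0.19 over all tested.

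For miR-451-5p the order of the group means was dextromethorphan with 6822 FPKM, both drugs with 4264 ± 1097 FPKM, caffeine with 3052 ± 482 FPKM and control with 1959 FPKM (SD, n = 3). No neighbours in this order differed past the threshold: the adjusted p was 0.338 for both drugs against dextromethorphan, 0.893 for both drugs against caffeine and 0.229 for caffeine against control. miR-144-5p had the same order of means, 2925 ± 1427, 1155 ± 293, 1095 ± 603 and 829 ± 169 FPKM. For miR-451-3p caffeine with 385 ± 119 FPKM came before both drugs with 358 ± 236 FPKM, between dextromethorphan with 606 ± 153 FPKM and control with 105 ± 33.2 FPKM. For miR-144-3p caffeine (231 ± 176 FPKM) likewise stood above both drugs (202 ± 12.0 FPKM), with dextromethorphan highest (1006 ± 749 FPKM) and control lowest (172 ± 68.9 FPKM).

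Both drugs were set against dextromethorphan alone to show what caffeine added. The log2 fold changes of the 4 members were negative: -0.67 ± 0.33 (SE) for miR-451-5p, -0.83 ± 0.49 for miR-451-3p, -1.19 ± 0.46 for miR-144-5p and -1.65 ± 0.72 for miR-144-3p. With limma 0 of 4 passed and 2 had an unadjusted p under 0.05, both of the miR-144 hairpin, where 3.55% of all microRNAs passed, 3.28% as lower and 0.273% as higher, and the median of all tested was -0.24. The groups overlapped for all 4 members; 13.1% of all microRNAs tested had every library of both drugs below every dextromethorphan library. Both miR-144 strands passed without DEX1 (adjusted p = 0.0335 for 5p and 0.0197 for 3p), and miR-144-3p turned to 0.22 without DEX2 and DEX3. Against caffeine alone, both drugs gave log2 fold changes between -0.22 for miR-451-3p and 0.45 for miR-451-5p. There limma called 0 of 4 members and 0% of all microRNAs. An unadjusted p under 0.05 was found for 0 members and for 22 of the 366 microRNAs tested.

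Dextromethorphan was also set directly against caffeine. miR-451-5p was 2.18-fold higher in dextromethorphan libraries (95% interval 1.34 to 3.57) with no overlap, as 12.3% of all microRNAs tested were, but its adjusted p of 0.0947 did not pass. The log2 fold changes were 0.61 ± 0.49 (SE) for miR-451-3p, 1.37 ± 0.46 for miR-144-5p and 1.75 ± 0.72 for miR-144-3p. With limma 0 of 4 passed, where 2.46% of all microRNAs passed. An unadjusted p under 0.05 was found for 3 members and for 55 of the 366 microRNAs tested. Without DEX1 the members other than miR-451-3p passed (limma adjusted p = 0.0266, 0.0158 and 0.0124 for miR-451-5p, miR-144-5p and miR-144-3p).

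The interaction contrast compares the effect of both drugs with the sum of the separate effects on the log2 scale. It was -1.33 ± 0.47 (SE) for miR-451-5p, -2.37 ± 0.69 for miR-451-3p, -1.46 ± 0.66 for miR-144-5p and -1.80 ± 1.02 for miR-144-3p, beside a median of -0.39 over all microRNAs tested. With limma 0 of 4 members passed, where 4.64% of all microRNAs passed. An unadjusted p under 0.05 was found for 3 members and for 78 of the 366 microRNAs tested. The smallest adjusted p was that of miR-451-3p, 0.0625; it was 0.042 without DEX1, 0.0289 without CAFDEX2 and 0.0484 without the mean-variance trend. The contrast uses all 4 groups, so it shares libraries with each comparison above.

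**Figure D2:**
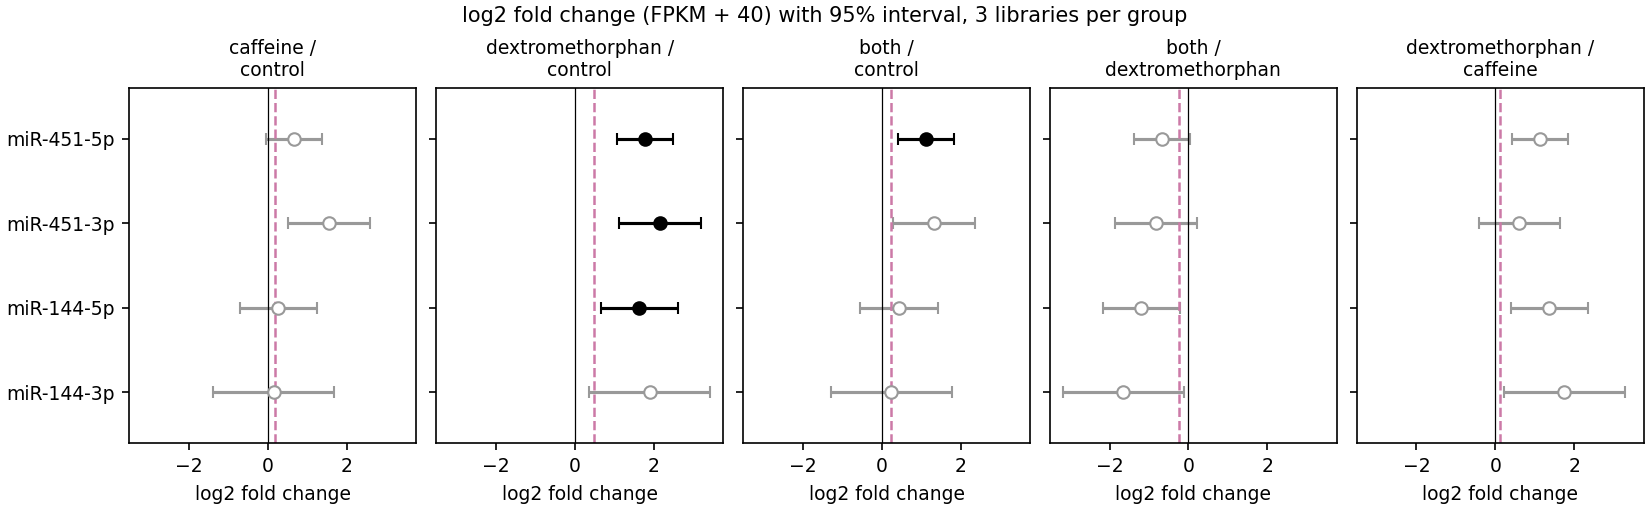
log2 fold change (horizontal axis) with its 95% interval for the 4 members in 5 comparisons, each of 3 libraries per group; filled black points have an adjusted p under 0.05 and the dashed line is the median of all 366 microRNAs tested. In the comparison of dextromethorphan with control all 4 points lie between 1.64 and 2.15, right of the median of 0.47, and 3 are filled; in the comparison of both drugs with control only miR-451-5p is filled.

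The balance of strands was described for each hairpin, and a difference between the hairpins was not tested. The log2 ratio of 5p to 3p overlapped between them, at 2.77 to 4.31 for miR-451 and 1.10 to 3.44 for miR-144. On the length-corrected FPKM scale the 5p strand exceeded the 3p strand in all 12 libraries for both hairpins. The log2 ratio of miR-451-5p to miR-451-3p was 3.02 ± 0.29 after caffeine, 3.49 ± 0.17 after dextromethorphan, 3.74 ± 0.63 after both drugs and 4.23 ± 0.11 in control (SD, n = 3). All 3 caffeine libraries (2.77 to 3.35) and all 3 dextromethorphan libraries (3.33 to 3.67) lay below the controls (4.11 to 4.31), while the libraries of both drugs (3.02 to 4.19) overlapped them. These ratios rest on 2 to 18 reads of the 3p strand per library, and in ctrl1, ctrl3 and ctrl5 it had 6, 7.5 and 2 reads. The 2 reads of ctrl5 allow 8.07 to 241 FPKM (exact Poisson 95% interval, counting error alone). Summed by group, miR-451-3p had 42.5 reads after caffeine, 22.5 after dextromethorphan and 15.5 in control. The sums of miR-451-5p were 327.33, 241 and 276.5 reads. Whether the strand shares differed by more than counting error was not tested. How many ratios of other microRNAs separate the groups as fully was not counted. Among single microRNAs tested, every caffeine library lay above every control for 26%, and every dextromethorphan library for 26%. Both strands lie 5 bases apart and their recovered counts were not all whole; the part of divided reads in this ratio was not tested.

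The log2 ratio of miR-144-5p to miR-144-3p was 2.52 ± 1.17 after caffeine, 1.92 ± 0.96 after dextromethorphan, 2.48 ± 0.48 after both drugs and 2.35 ± 0.79 in control, with all groups overlapping. Its lowest values were 1.10 in DEX3 and 1.199 in CAF3. Between the hairpins, the log2 ratio of miR-451-5p to miR-144-5p was above 0 in all 12 libraries. It ranged from 0.41 in ctrl5 to 2.35 in CAF4 and lay within 1.87 to 1.90 in the 3 libraries of both drugs. miR-451-5p made up 64.6% ± 9.52 of the locus' recovered reads after caffeine, 61.6% ± 8.51 after dextromethorphan, 70.8% ± 1.82 after both drugs and 62.4% ± 10.3 in control, so the groups overlapped in the make-up of the locus.

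Across the 12 libraries the members' log2 levels went together to different degrees. Pearson's r was 0.89 between both strands of miR-451, 0.85 between both strands of miR-144, 0.78 between the 5p strands and 0.54 between the 3p strands. As deviations from the group means the same values were 0.78, 0.71, 0.50 and 0.30. These libraries share a scale that sums to a constant, so the values describe these 12 libraries alone.

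**Figure D3:**
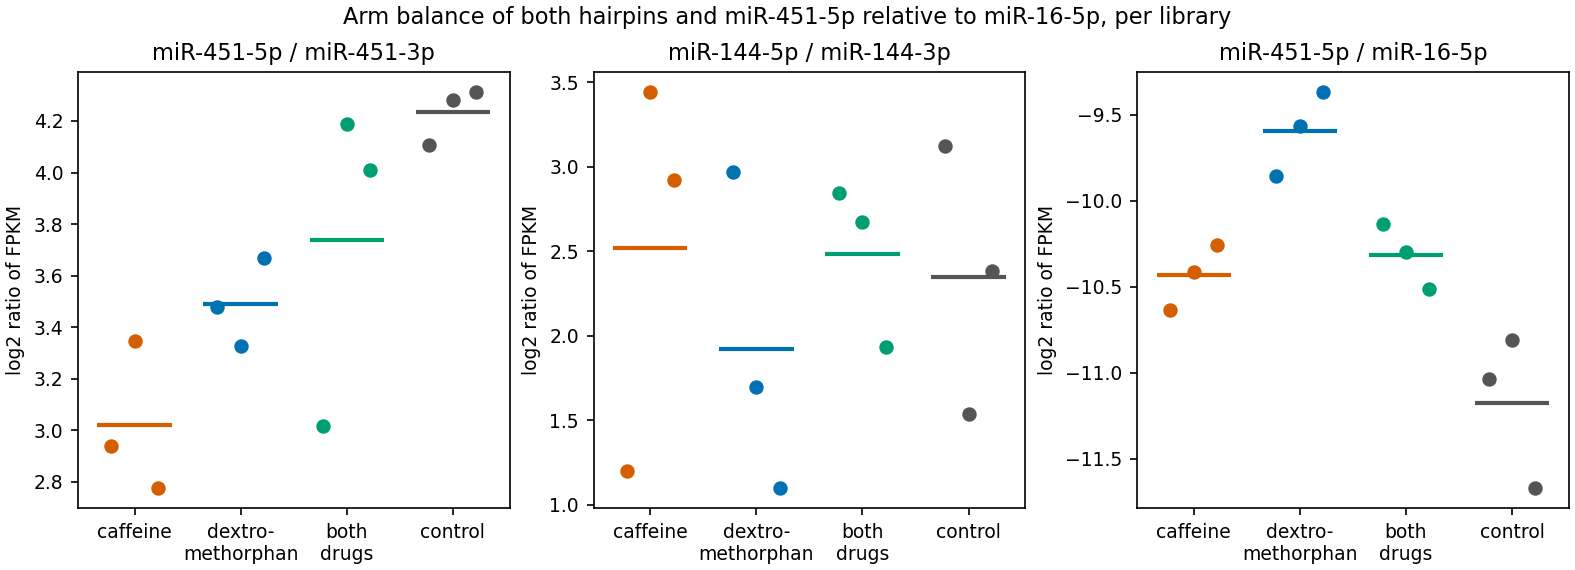
log2 ratios of FPKM per library (points) with group means (lines): miR-451-5p to miR-451-3p, miR-144-5p to miR-144-3p, and miR-451-5p to miR-16-5p, for 3 libraries per group. The first ratio is highest in control (4.11 to 4.31) and the third is highest after dextromethorphan, at -9.86 to -9.37, and lowest in control, at -11.7 to -10.8.

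Library depth differed between the groups. Reads assigned to microRNAs numbered 1504963 to 1842796 after caffeine, 403913 to 895792 after dextromethorphan, 758290 to 1160717 after both drugs and 1304868 to 2625593 in control. Recovered reads of miR-451-5p numbered 109 ± 18.4 after caffeine, 80.3 ± 13.6 after dextromethorphan, 90.5 ± 22.1 after both drugs and 92.2 ± 51.1 in control (SD, n = 3), and the groups overlapped (exact permutation p = 0.714 over 369600 assignments of libraries to groups). Scaled to assigned reads as RPM, the means were 67.1 ± 10.6, 150.07 ± 38.3, 93.8 ± 24.1 and 43.1 ± 12.5. As log2 ratios of mean recovered reads against control, miR-451-3p had 1.46 after caffeine, 0.54 after dextromethorphan and 0.66 after both drugs. miR-144-5p had 0.11, -0.14 and -0.51, and miR-144-3p had 0.03, 0.36 and -0.81. The rise of miR-451-5p after dextromethorphan is a rise in its share of the library, on a like number of its own reads.

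As RPM, miR-451-5p was highest in the shallowest libraries, DEX3 and DEX2, at 181 and 162 RPM. It was 47.0 and 53.1 RPM in the deepest, ctrl1 and ctrl3, and lowest in ctrl5, at 29.1 RPM. Every dextromethorphan library was shallower than every control, so depth and drug cannot be told apart in that comparison. The part of depth in the rise was not tested. The order of the libraries by depth was not that of their miR-451-5p reads. The shallowest control, ctrl5, had 1304868 assigned reads and 38 reads of miR-451-5p, fewer than each of the 9 drug libraries. The deepest control, ctrl3, had 2625593 assigned reads and 139.5 reads of miR-451-5p, more than each of the 9 drug libraries. The remaining control, ctrl1, had 2104294 assigned reads and 99 reads of it. Of the 9 drug libraries, 6 were shallower than ctrl5 and held 72 to 116 reads of miR-451-5p. Thinned to the depth of the shallowest library, miR-451-5p passed after dextromethorphan, while miR-451-3p (log2 fold change 2.47, limma adjusted p = 0.0827) and miR-144-5p (1.21, 0.169) did not. Thinning draws reads at random and keeps each microRNA's expected share. It therefore evens out counting noise alone and cannot test the part of depth in the rise. The deposited values hold no amount of RNA per volume of serum, and a change in the number of cells that give a microRNA to serum and a change in its amount per cell cannot be told apart in them, whatever those cells are.

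**Figure D4:**
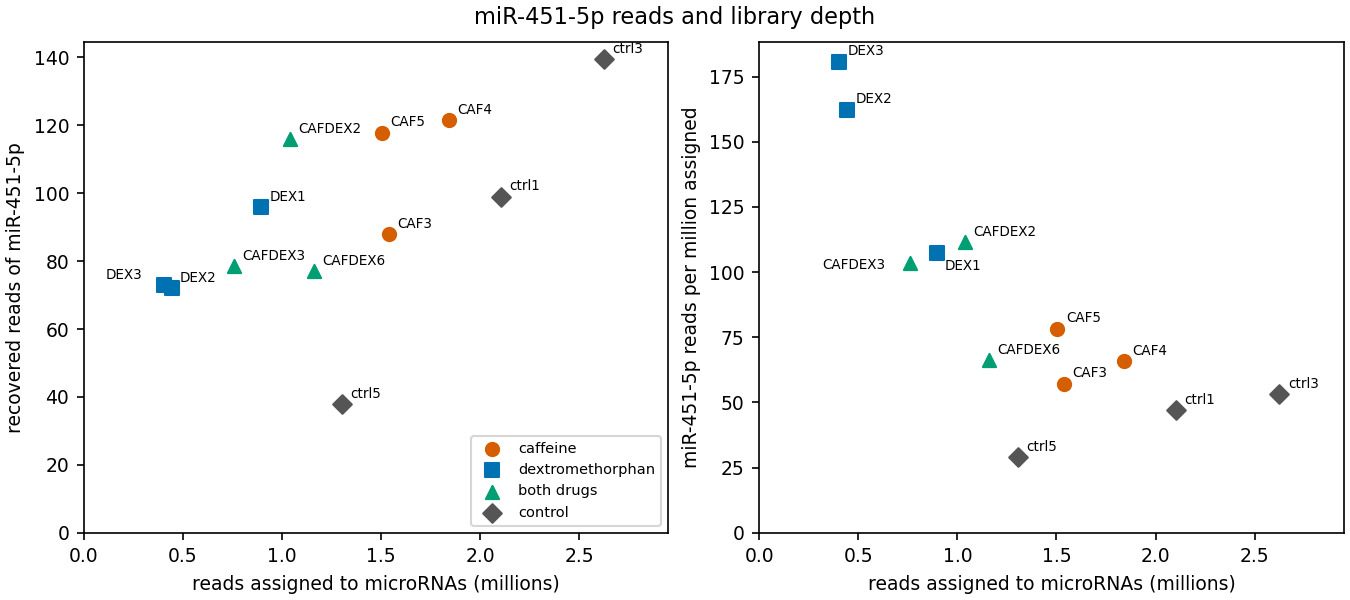
Recovered reads of miR-451-5p (left) and the same reads as RPM (right) against the reads assigned to microRNAs, for 12 libraries marked by group. On the left the drug libraries lie between 72 and 121.5 reads, inside the range of 38 to 139.5 in control; on the right DEX2 and DEX3, the shallowest libraries, reach 162 and 181 RPM.

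miR-451-5p was also set against single microRNAs in place of the library total. Its log2 ratio to miR-16-5p was -10.4 ± 0.19 after caffeine, -9.60 ± 0.25 after dextromethorphan, -10.3 ± 0.19 after both drugs and -11.2 ± 0.45 in control (SD, n = 3). By an exact permutation test over the 4 groups the ratio differed (p = 0.000325, adjusted for 3 quantities 0.000974), and all 9 drug libraries lay above all 3 controls. How many other microRNAs separate as fully relative to miR-16-5p was not counted. Each drug group against control gave p = 0.1 (two-sided exact permutation), the smallest value that 3 against 3 libraries allow. The ratio to miR-23a-3p, a microRNA little affected by red cells that serves as the usual partner in a haemolysis index, also differed (exact permutation p = 0.00649, adjusted 0.00974); CAF3 at -7.110 lay barely above ctrl3 at -7.115. For miR-451-5p, miR-451-3p and miR-144-5p the difference between dextromethorphan and control was 1.58, 2.32 and 1.45 log2 units relative to miR-16-5p, and 1.94, 2.68 and 1.81 relative to miR-23a-3p. For miR-144-3p the values were 1.88 and 2.24.

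None of the 12 other red-cell microRNAs tested passed as higher in any of the 3 comparisons with control. Of 14 names listed beside the locus 12 were in the table and all 12 were tested. The miR-486 names of the list were not matched, so miR-486 was not analysed here. After dextromethorphan 0 of the 12 passed with limma, where 11.5% of all 366 microRNAs tested passed as higher and 0.546% as lower. Of the 12, 3 had an unadjusted p under 0.05, as did 118 of the 366. All 3 were lower: miR-17-5p, miR-20a-5p and miR-92a-3p, with log2 fold changes of -0.79, -0.87 and -0.82. The list's median log2 fold change was 0.28, beside 0.47 over all microRNAs tested and 1.85 over the locus. Its 3 most abundant members, miR-16-5p, miR-92a-3p and miR-25-3p, had 0.23 ± 0.20, -0.82 ± 0.29 and 0.39 ± 0.24 (SE). Across the 12 libraries the correlation of miR-16-5p with miR-451-5p was r = 0.73, at rank 33 of 365 microRNAs. As deviations from group means it was 0.76, and both values describe these libraries alone.

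After both drugs miR-17-5p, miR-20a-5p and miR-92a-3p fell by 1.002, 1.90 and 1.36 on the log2 scale (limma adjusted p = 0.0478, 0.0074 and 0.0132) and the other 9 did not pass. Among all microRNAs tested 4.37% passed as lower and 6.56% as higher in that comparison. After caffeine miR-20a-5p and miR-92a-3p fell by 1.27 and 1.02 (limma adjusted p = 0.0475 and 0.0419), where 1.09% of all microRNAs tested passed as lower and 6.83% as higher. miR-17-5p, miR-20a-5p and miR-92a-3p come from the miR-17-92 cluster, which many kinds of dividing cell express. The list as a whole took 12.1% to 13.1% of assigned reads after caffeine, 13.7% to 16.6% after dextromethorphan, 12.9% to 16.3% after both drugs and 13.2% to 15.8% in control. This share mainly follows miR-16-5p, which averaged 4773900 FPKM, against 827644 FPKM for the next on the list, miR-92a-3p. No member of the list was at 0. Whether red-cell content differed between the sera was not tested, and haemoglobin readings of the sera were not analysed here.

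**Figure D5:**
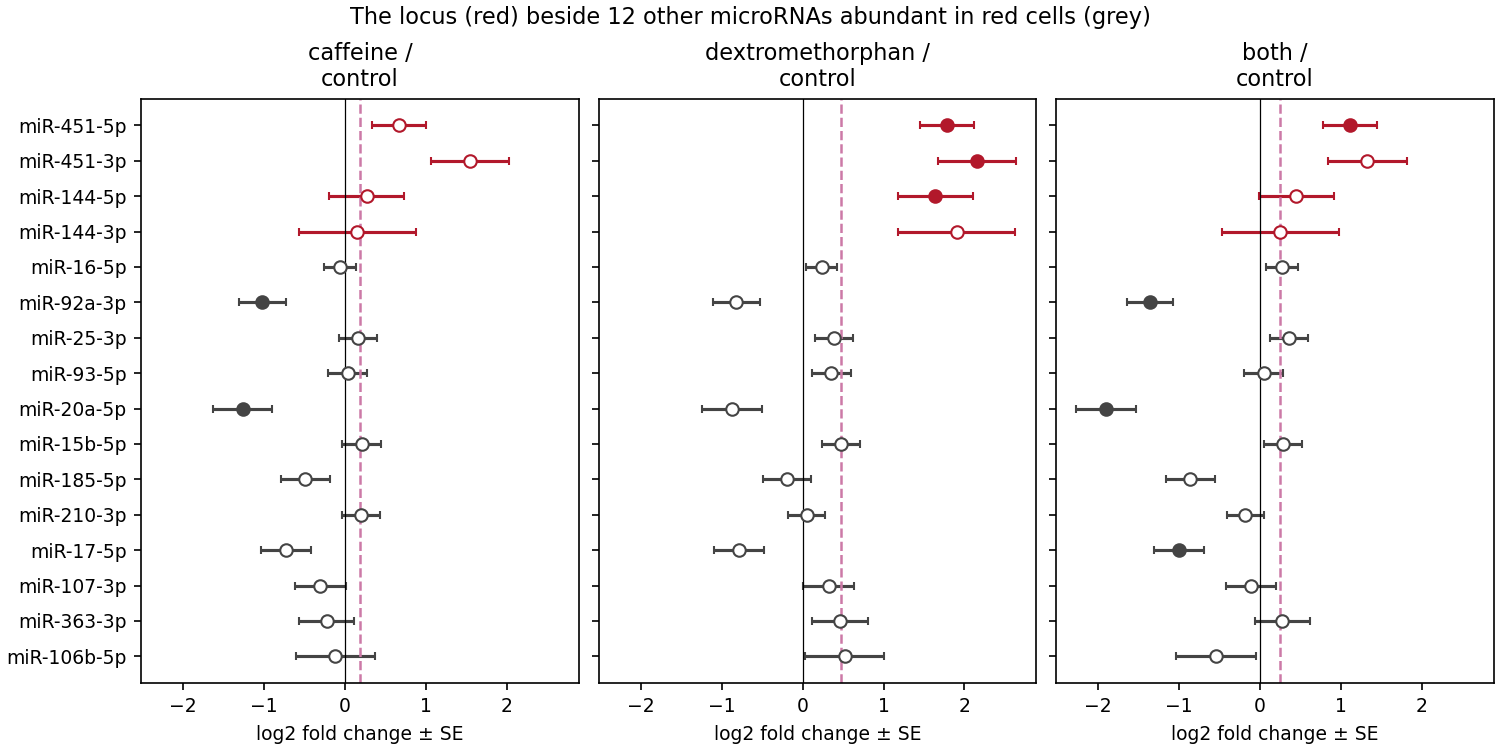
log2 fold change ± SE against control after caffeine, dextromethorphan and both drugs for the 4 members (red) and 12 other microRNAs abundant in red cells (grey, by falling mean level); filled points have an adjusted p under 0.05 and the dashed line is the median of all microRNAs tested. After dextromethorphan the members lie at 1.64 to 2.15 and the 12 others at -0.87 to 0.52.

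Markers of other sources were counted beside the locus, against 11.5% of all microRNAs tested that passed as higher after dextromethorphan. In that comparison 4 of 6 microRNAs of the hepatocyte list rose, while miR-148a-3p and miR-122-3p did not pass (log2 fold changes -0.42 and 0.21). The list took 9.02% to 17.1% of assigned reads, against 4.07% to 6.91% in control. Its most abundant member, miR-122-5p, rose by 1.64 ± 0.39 log2 units (SE, adjusted p = 0.0175). Of 7 leukocyte microRNAs 1 rose, and the list took 3.27% to 4.73% of reads, against 2.29% to 3.20% in control, with miR-150-5p at 0.89 ± 0.31 (adjusted p = 0.0608). Of 8 platelet microRNAs 1 rose, miR-199a-3p by 1.17 ± 0.33 (adjusted p = 0.0352), with a median log2 fold change of 0.62 over the list, and the list took 5.70% to 6.87%, against 7.35% to 8.08% in control, with its most abundant member, miR-223-3p, at -0.66 ± 0.22 (adjusted p = 0.0572). The shares of 1 in 7 and 1 in 8 lie near that of all microRNAs tested. The hepatocyte list's part of the reads mainly follows miR-122-5p, at 3476360 FPKM on average, against 812144 FPKM for the next member. That of the platelet list mainly follows miR-223-3p, at 2532980 FPKM, against 206253 FPKM for the next member. After caffeine and after both drugs 3 and 2 hepatocyte microRNAs, 2 and 3 leukocyte microRNAs and 1 and 1 platelet microRNA rose. Among all microRNAs tested 6.83% passed as higher after caffeine and 6.56% after both drugs. No list had a member at 0 in all libraries, but the hepatocyte microRNA miR-122-3p reached 0 in the dextromethorphan group. The part of these lists in the rise of the locus was not tested.

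By correlation over the 12 libraries, the microRNAs outside the locus whose log2 level was most like that of miR-451-5p were miR-222-3p (r = 0.91), miR-192-3p (0.89), miR-192-5p (0.87), miR-194-5p (0.87) and miR-140-3p (0.85). miR-451-3p stood second among all 365 with r = 0.89, miR-144-5p was at rank 17 and miR-144-3p at rank 69. Within groups the likeness of miR-222-3p and miR-140-3p remained (0.74 and 0.79 as deviations from group means). It was 0.45 for miR-194-5p, 0.26 for miR-192-3p and 0.27 for miR-192-5p. Since they were picked for likeness to a microRNA that was highest in the dextromethorphan libraries, their own direction there was largely set by the choice and is given as a description. Their log2 fold changes after dextromethorphan were 1.16 ± 0.35 (SE) for miR-222-3p, 2.89 ± 0.44 for miR-192-3p, 2.99 ± 0.32 for miR-192-5p, 3.39 ± 0.35 for miR-194-5p and 0.94 ± 0.26 for miR-140-3p. miR-192-5p and miR-194-5p also stand on the hepatocyte list. Of the relatives of miR-144-3p by bases 2 to 7, miR-101a-3p rose after dextromethorphan by 1.09 ± 0.33 log2 units (adjusted p = 0.0446) and miR-101b-3p had 0.38 ± 0.26 (adjusted p = 0.313).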

How the data were processed

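Small RNA was sequenced by the authors from 200 uL of serum per the labels' protocols (QIAseq miRNA kit, whose primer carries molecular indices; no source used here says whether duplicates were collapsed with them). Of the 5 rats that the design lists for a group, 3 libraries were analysed. The authors deposited FPKM values for each mature microRNA. The submitters' processing notes name build rn6 and, without roles, DESeq2 1.20.0, Subread 2.0.1, featureCounts, STAR 2.7.10a and cutadapt 3.7. FPKM times length summed to the same constant in every library. Column names gave the group but not the sample, and nothing says that libraries came from separate animals, so the p-values reflect library-to-library spread, which may be technical.

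Copies of a name were summed (836 rows, 752 names). Testing was limited to the 366 names that averaged 80 FPKM or more and exceeded 0 in 3 or more libraries; it was done with limma 3.58.1 in R 4.3.3 on log2(FPKM + 40), a scale that understates changes of low values, in 1 model over 4 groups with a mean-variance trend (8 residual and 7.58 prior degrees of freedom), two-sided, with Benjamini-Hochberg adjustment and a threshold of 0.05. Reads were recovered as multiples of the commonest FPKM times length, which gave steps of 0.01 read for all values within 0.0001; 65.4% to 75.0% were whole. Poisson intervals used reads rounded to whole numbers and cover counting error alone. Sequences were folded with RNAfold 2.7.2. The fit was checked on simulated data. Python 3.11.15 was used with pandas 2.3.3, numpy 2.4.6, matplotlib 3.10.9 and scipy 1.17.1.

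The members and lists were chosen with earlier results of these data known. The named microRNAs are the members, the passing and 3 most abundant members of the red-cell list and the most abundant member of each other list. The 5 most correlated with miR-451-5p and the reference microRNAs are named as well. The seed relatives, miR-199a-3p, miR-122-3p, miR-148a-3p and the 3 red-cell microRNAs with an unadjusted p under 0.05 were added after their values were seen. miR-486 is named without values.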

Additional observations from a re-analysis of the deposited data

How the results depend on the processing

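Each comparison was refitted under 25 alternatives (24 for the interaction): other pseudocounts, filters, scalings and models, thinning, and leaving out libraries; the values relative to miR-16-5p and miR-23a-3p were added after seeing the data. No paired analysis was possible because the columns name the group while their numbers do not match the replicate numbers of the labels. All values below are log2 fold changes unless said otherwise, and where a call or direction changed, the cause was not tested. Few reads of both 3p strands, 3 libraries per group and a scale relative to the library total limit the results. miR-451-5p after dextromethorphan passed in all alternatives but one: without DEX2 and DEX3 it was 1.34, not past the threshold.

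For dextromethorphan against control, miR-451-3p was no longer past the threshold when thinned (2.47) or without DEX2 and DEX3 (1.75), and ranged from 1.95 to 2.36 with 1 library left out. miR-144-5p was not past it with median-of-ratios (1.24), quantile (1.03) or trimmed-mean scaling (1.13), without miR-191a-5p (1.38), with no filter, the groups alone or no trend (1.64 each), thinned (1.21) or without DEX2 and DEX3 (0.65); with 1 library left out it ranged from 1.34 to 2.13, and miR-144-3p from 1.34 to 2.84. The number of members called was 3, and 0 to 4 over the alternatives. The number of all microRNAs called was 44, and 12 (without DEX3) to 74 (without DEX1).

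For both drugs against control, miR-451-5p was not past the threshold with median-of-ratios (0.95), quantile (0.93) or trimmed-mean scaling (0.89), without miR-191a-5p (0.90), with no filter, the groups alone or no trend (1.12 each) or thinned (1.13), and ranged from 0.86 to 1.34 with 1 library left out. miR-451-3p ranged from 0.87 to 1.65. miR-144-3p turned negative with quantile scaling (-0.083) and thinned (-1.53), and ranged from -0.045 to 0.45. Members called numbered 1, and 0 to 2 over the alternatives; all microRNAs called numbered 40, and 4 (without CAFDEX2) to 60 (without DEX2 and DEX3).

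For caffeine against control, miR-451-3p passed with the groups alone (1.54) and with voom (1.70), and ranged from 1.33 to 1.70 with 1 library left out. miR-144-3p turned negative with median-of-ratios (-0.069), quantile (-0.46) and trimmed-mean scaling (-0.12) and thinned (-0.11), ranging from -0.34 to 0.78; miR-144-5p did with quantile (-0.014) and trimmed-mean scaling (-0.040) and thinned (-0.026), ranging from -0.13 to 0.62. Members called numbered 0, and 0 to 1; all microRNAs called numbered 29, and 4 (without ctrl3) to 65 (groups alone).

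For both drugs against caffeine, miR-451-3p turned to 0.46 when thinned and ranged from -0.67 to 0.11 with 1 library left out; miR-144-3p turned to -0.0029 with a pseudocount of 160 FPKM and to -1.42 thinned, ranging from -0.53 to 0.59; miR-144-5p ranged from -0.18 to 0.58. Without DEX2 and DEX3, miR-144-3p turned to 0.22 for both drugs against dextromethorphan, to -0.12 for dextromethorphan against caffeine and to 0.071 for the interaction. As a log2 ratio of mean recovered reads, with no scaling to depth, miR-451-5p was -0.20 for dextromethorphan and -0.026 for both drugs against control, and miR-144-5p was -0.14 for dextromethorphan. After both drugs miR-144-3p was -0.81 and miR-144-5p -0.51, where FPKM gave 0.23 and 0.48; miR-451-3p stayed positive, at 1.46, 0.54 and 0.66 after caffeine, dextromethorphan and both drugs.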
